A study of Homo sapiens with 6 samples.

Results

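Airway mucins and surfactant genes were followed in A549 cells after knockdown of BAP18. The set was fixed by name as 10 genes, of which 4 encode mucins (MUC1, MUC5AC, MUC5B and MUC16) and 6 encode surfactant proteins or the surfactant lipid transporter (SFTPA1, SFTPA2, SFTPB, SFTPC, SFTPD and ABCA3). Of the 10 genes, 9 have a row among the 35474 genes of the deposited count table, and SFTPA1 is not listed there. After a filter on low counts 20776 genes were tested, and 6 of these were members. A549, a human line derived from a lung adenocarcinoma, is often used as a stand-in for alveolar type 2 cells. The 3 control cultures (siCtrl) received a non-specific siRNA and the 3 knockdown cultures (siBAP18) an siRNA against BAP18, and all 6 were collected 48 h after transfection. All values therefore come from a single cell line, and which BAP18 siRNA these cultures received is not given in the sources used here.

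Gel-forming mucins such as MUC5AC and MUC5B are secreted by goblet cells and glands and make up the gel that traps particles in the airway. Membrane-bound mucins such as MUC1 and MUC16 stay on the cell surface. In both kinds, long stretches rich in serine and threonine carry O-linked sugars. Pulmonary surfactant is a mixture of lipid and protein made by alveolar type 2 cells. ABCA3 moves its phospholipid into storage organelles called lamellar bodies.

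The coding sequences of the mucins set them apart from the surfactant genes. Codons for serine or threonine made up 26.2% of the coding sequence of MUC1, 35.2% of MUC5AC, 32.0% of MUC5B and 36.0% of MUC16, against a median of 12.9% over 18840 coding genes of GENCODE 29. The same share was between 9.13% (SFTPA1) and 12.2% (SFTPC) in the 6 surfactant genes. The mucin stretches are also repetitive: of all words of 24 coding bases, 55.7% occurred more than once in MUC1, 37.8% in MUC5AC, 40.9% in MUC5B and 6.30% in MUC16, and none in the surfactant genes. The following stretches of 144 coding bases show what the reads of these genes had to be placed on, with every copy of the gene's most frequent word of 24 bases in capitals. They are GENCODE 29 coding sequences on GRCh38, printed 5′ to 3′ on the strand of the gene. The MUC1 stretch is at chr1:155191794-155191937 (- strand) in exon 2 of 11. The MUC5AC stretch is at chr11:1185653-1185796 (+ strand) in exon 31 of 49, a single exon of 10371 bases, and the MUC5B stretch is at chr11:1250087-1250230 (+ strand) in exon 31 of 49, which has 10893 bases.
MUC1: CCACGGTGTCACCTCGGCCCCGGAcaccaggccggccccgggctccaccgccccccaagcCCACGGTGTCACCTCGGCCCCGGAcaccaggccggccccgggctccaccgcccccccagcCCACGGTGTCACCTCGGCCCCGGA
MUC5AC: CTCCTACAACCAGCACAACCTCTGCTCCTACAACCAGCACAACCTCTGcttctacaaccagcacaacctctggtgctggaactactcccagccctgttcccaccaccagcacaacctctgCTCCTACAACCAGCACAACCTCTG
MUC5B: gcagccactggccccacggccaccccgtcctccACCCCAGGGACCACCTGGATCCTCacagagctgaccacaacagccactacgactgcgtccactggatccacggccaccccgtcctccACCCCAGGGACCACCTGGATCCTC

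The MUC1 word occurred 40 times in the coding sequence, mostly at a spacing of 60 bases, while the MUC5AC word occurred 16 times and the MUC5B word 6 times. At the scale of 150 bases, 26.9% of the words of MUC1, 12.8% of MUC5B, 5.31% of MUC5AC and 0.0876% of MUC16 recurred within the same coding sequence. No word of 150 bases of the 4 mucins, SFTPB, SFTPC, SFTPD or ABCA3 occurred in a transcript of another gene read in the same direction; the opposite strand was not searched. SFTPA1 and SFTPA2, close paralogs on chromosome 10, shared 114 such words, or 4.73% of those of SFTPA1 and 4.33% of those of SFTPA2. How reads that fit several places were counted is not given in the sources used here.

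Library totals ranged from 46035635 to 53657450 counts in siCtrl and from 42094524 to 56548620 in siBAP18. BAP18, listed as C17orf49, fell to 15.9% of its siCtrl level (5.72 ± 0.470 RPKM in siCtrl and 0.915 ± 0.0656 in siBAP18, SD, n = 3 each), a change of −2.65 on the log2 scale (standard error 0.111, Benjamini-Hochberg adjusted p = 7.31e-16, edgeR quasi-likelihood test). RPKM is the count per kilobase of exon, scaled to the library's total, so that it can be compared between genes. The median log2 fold change over all tested genes was 0.001. Mitochondrial genes took 6.86% to 7.43% of the counts in siCtrl and 5.27% to 6.14% in siBAP18. This share moved with the mucins described here, and its part in their change was not tested.

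All 6 tested members differed between the groups at an adjusted p under 0.05. Of these, 5 were lower in siBAP18 cells (MUC5AC, MUC16, MUC5B, SFTPD and MUC1), where 25.1% of all tested genes were lower by the same rule, and 1 was higher (ABCA3), where 24.5% of all tested genes were higher. With an absolute log2 fold change over 1 required as well, 2 members (MUC5AC and MUC16) were called lower and 0 higher, against 3.74% of all tested genes called lower and 4.72% called higher. The median log2 fold change of the 6 was −0.47. In all 6 the CPM values of the groups did not overlap, which held for 56.6% of all tested genes.

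**Figure D1:**
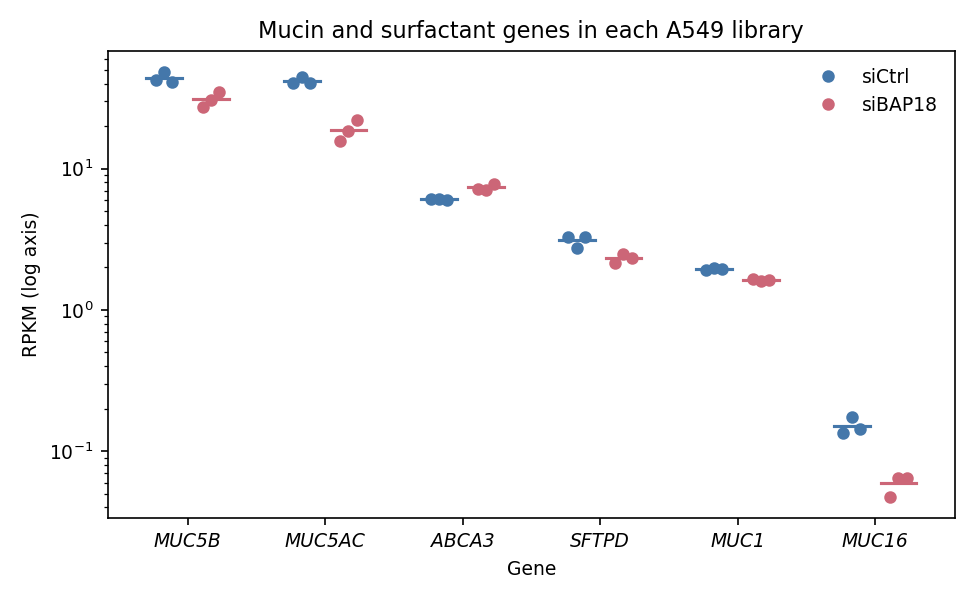
Expression of the 6 tested mucin and surfactant genes in each library, as RPKM on a log axis, with genes ordered by their siCtrl mean. Points are libraries (3 siCtrl in blue and 3 siBAP18 in red) and bars are group means, and the groups are separate for every gene, with siBAP18 above siCtrl for ABCA3 and below it for the other 5.

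Levels among the members spanned more than 2 orders of magnitude on the RPKM scale. MUC5B (44.0 ± 3.80 RPKM, SD, n = 3) and MUC5AC (41.6 ± 2.35) stood highest in siCtrl, above 94.8% and 94.5% of tested genes, and the libraries of these neighbours overlapped. ABCA3 (6.08 ± 0.0380), SFTPD (3.11 ± 0.305), MUC1 (1.95 ± 0.0224) and MUC16 (0.151 ± 0.0212) followed, with no overlap between any of these neighbours. MUC16 was the lowest, above 8.62% of tested genes. In siBAP18 cells the order was the same, but MUC5B (31.0 ± 3.92) and MUC5AC (18.7 ± 3.18) no longer overlapped.

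MUC5AC, a gel-forming mucin of goblet cells, lies at chr11:1157953-1201138 on the + strand. Its RPKM was 40.4, 44.3 and 40.1 in the siCtrl libraries (replicates 1 to 3) and 15.7, 18.5 and 22.0 in the siBAP18 libraries (replicates 1 to 3). Every siBAP18 library was thus far under every siCtrl library, with replicate 3 the highest of the siBAP18 libraries. The gene fell to 45.0% of its siCtrl level (log2 fold change −1.15, standard error 0.0938, Benjamini-Hochberg adjusted p = 2e-10, edgeR quasi-likelihood test). Counts behind these values were 37864, 35600 and 32928 in siCtrl and 14745, 18286 and 16163 in siBAP18, so counting error is small beside the spread of the libraries. In RNA from whole cultures, fewer cells that make a transcript and less of it in each cell cannot be told apart. The call held under all 15 alternatives, with log2 fold changes from −1.31 to −1.03, both reached by leaving out 1 siBAP18 library.

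MUC5B, the other abundant gel-forming mucin, is the next coding gene on the same strand, at chr11:1223066-1262172. RPKM values of 42.6, 48.3 and 41.1 in siCtrl and 27.2, 30.8 and 35.0 in siBAP18 did not overlap, but the highest siBAP18 library came closer to the siCtrl libraries than for MUC5AC. The gene fell to 70.4% of its siCtrl level (log2 fold change −0.51, standard error 0.0858, Benjamini-Hochberg adjusted p = 2.34e-05, edgeR quasi-likelihood test). It passed the adjusted p under all 15 alternatives, and its log2 fold change stayed between −0.63 and −0.41.

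The ratio of the gel-forming mucins was compared within each library, which needs no scaling of libraries to each other. For each MUC5B count there were 0.890, 0.861 and 0.915 MUC5AC counts in siCtrl and 0.540, 0.565 and 0.590 in siBAP18. The mean ratio was 0.889 ± 0.0271 (SD, n = 3) in siCtrl and 0.565 ± 0.0247 in siBAP18, with all siBAP18 libraries below all siCtrl libraries, a difference of −0.65 on the log2 scale. A two-sided exact permutation test gave p = 0.1, which is the smallest p that 3 against 3 libraries allow. This ratio was chosen after the values had been seen.

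**Figure D2:**
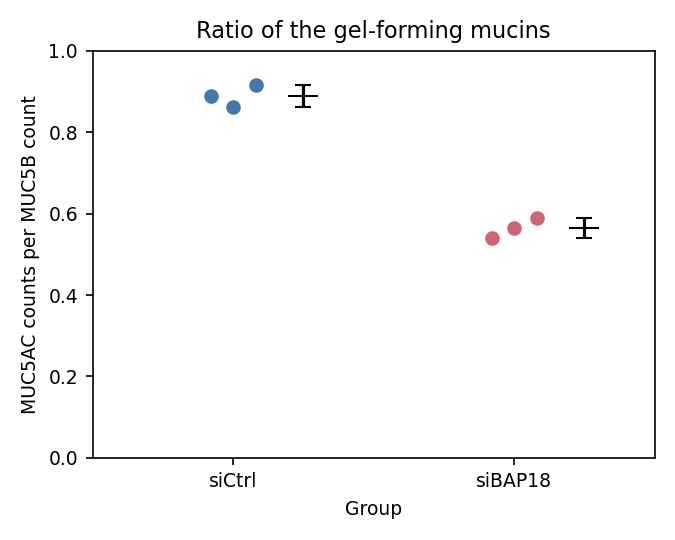
MUC5AC counts per MUC5B count in each library, by group. Points are libraries, and the horizontal mark with its bar is the mean ± SD of 3 libraries; the siCtrl libraries lie between 0.861 and 0.915 and the siBAP18 libraries between 0.540 and 0.590.

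An antisense gene lies inside MUC5B at chr11:1242261-1249676 on the - strand, and all 434 of its exon bases fall within MUC5B exons. It had 2880 to 3476 counts in siCtrl and 2102 to 2744 in siBAP18, and its log2 fold change was −0.51 (standard error 0.0923, Benjamini-Hochberg adjusted p = 5.34e-05, edgeR quasi-likelihood test). Its counts per MUC5B count, a ratio that was not among the planned comparisons, were 0.0812 ± 0.00103 (SD, n = 3) in siCtrl and 0.0810 ± 0.00391 in siBAP18. A two-sided exact permutation test gave p = 0.8. Whether the authors' counting used strand is not given in the sources used here, and reads of this gene and of MUC5B cannot be told apart without it.

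Around these genes, the mucin cluster of chromosome 11 and its flanks held 9 tested genes. MUC2, the gel-forming mucin of the intestine, had 25 to 44 counts per library in siCtrl and 18 to 25 in siBAP18 (log2 fold change −0.69, standard error 0.327, Benjamini-Hochberg adjusted p = 0.0843, edgeR quasi-likelihood test). MUC6, a gastric mucin, had 98 to 107 counts in siCtrl and 46 to 162 in siBAP18, so that its groups overlapped (log2 fold change −0.20, standard error 0.232, adjusted p = 0.503). AP2A2, a subunit of the endocytic AP-2 adaptor that lies beyond MUC6, fell by 0.77 on the log2 scale (standard error 0.0663, adjusted p = 5.1e-10). CHID1 (log2 fold change 0.06, adjusted p = 0.578) and TOLLIP (−0.17, adjusted p = 0.078), at the outer ends, did not pass the test.

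**Figure D3:**
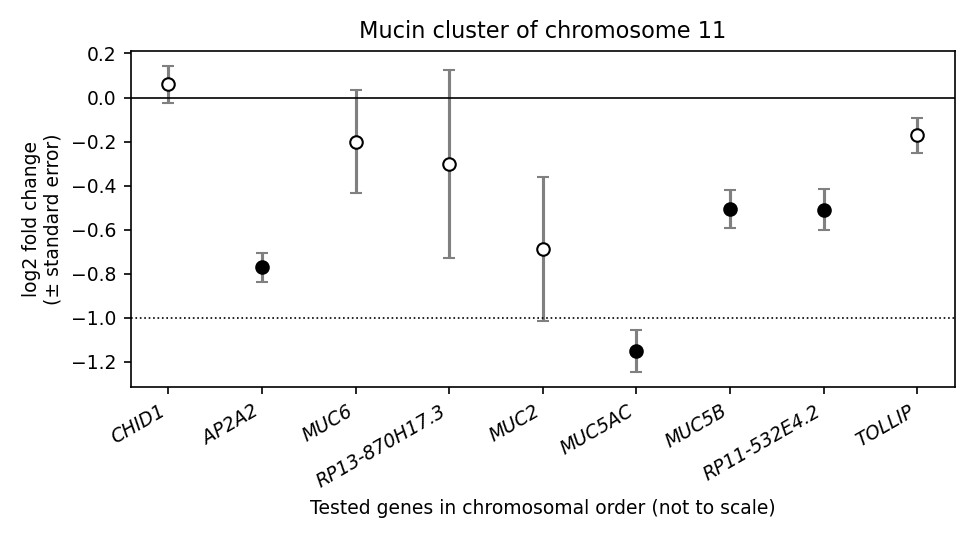
The log2 fold change of siBAP18 against siCtrl (± standard error) for the 9 tested genes in and around the mucin cluster, in chromosomal order and not to scale. Filled points have an adjusted p under 0.05; MUC5AC at −1.15 is the lowest of the 9, and AP2A2, MUC5B and the antisense gene inside MUC5B are the other filled points.

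MUC16, the membrane-bound mucin that carries the CA-125 epitope, lies at chr19:8848844-8981342 on the - strand and has the longest exon length of the members, 43830 bases. Its RPKM was 0.134, 0.175 and 0.144 in siCtrl and 0.0477, 0.0646 and 0.0650 in siBAP18, with no overlap. The gene fell to 38.9% of its siCtrl level (log2 fold change −1.36, standard error 0.142, Benjamini-Hochberg adjusted p = 1.39e-08, edgeR quasi-likelihood test). The number of reads was modest, with 298 to 353 counts in siCtrl and 113 to 160 in siBAP18. Per MUC5B count it fell from 0.00808 ± 0.000582 (SD, n = 3) to 0.00449 ± 0.000414, with a two-sided exact permutation p = 0.1, again the smallest possible. This ratio was not among the planned comparisons either. Of the alternatives, 13 kept the gene and all 13 had an adjusted p under 0.05. On log2(RPKM + 1) without a filter the log2 fold change was −0.12, since the pseudocount is larger than the level of the gene, and the gene was then not called.

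MUC1, a membrane-bound mucin found on most epithelia, lies at chr1:155185824-155192916 on the - strand. RPKM values were 1.93, 1.98 and 1.94 in siCtrl and 1.66, 1.60 and 1.63 in siBAP18, a small gap with tight groups. The level in siBAP18 was 83.2% of that in siCtrl (log2 fold change −0.27, standard error 0.0949, Benjamini-Hochberg adjusted p = 0.0222, edgeR quasi-likelihood test). The adjusted p was under 0.05 in 9 of 15 alternatives. It rose to between 0.0511 and 0.0646 on leaving out any 1 library other than siBAP18 replicate 3, and was 0.0527 with limma on log2(RPKM + 1) without a filter. AC234582.2, an antisense gene with 94.7% of its exon bases inside MUC1 exons, had 18 to 30 counts a library beside the 323 to 489 of MUC1.

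Among the surfactant genes, 3 of those listed were not detected at a level that could be tested, and SFTPA1 was not listed. Every listed gene had at least 1 count over the 6 libraries, so a gene with 0 counts in all of them would be missing. Whether this is why SFTPA1 is missing was not tested. SFTPC, the protein that defines alveolar type 2 cells, had 0, 3 and 2 counts in siCtrl and 0, 7 and 0 in siBAP18. SFTPB, which spreads surfactant lipid at the air surface, had 0, 0 and 1 counts in siCtrl and 0, 4 and 2 in siBAP18. SFTPA2, a collectin that binds microbes, had 2, 0 and 0 counts in siCtrl and 0 in each siBAP18 library. A library with 0 counts of a gene allows up to 3 counts, which is between 0.0129 and 0.0265 RPKM for these genes, and this limit covers counting error only. No difference between the groups was detectable at this depth. NKX2-1, the transcription factor of alveolar and airway fate, had 0, 4 and 0 counts in siCtrl and 8, 3 and 2 in siBAP18, and SLC34A2, a phosphate transporter of type 2 cells, had at most 5 counts in any library. SFTPA2, SFTPB, SFTPC, NKX2-1 and SLC34A2 were thus at or near 0 in both groups, whereas other genes that type 2 cells use, such as ABCA3 and the protease gene NAPSA (25 to 67 counts a library), were detected in every library.

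SFTPD, a secreted collectin of the surfactant that is also made by airway cells, was the only surfactant protein gene that passed the filter. The gene spans chr10:79937740-79982614 on the - strand. Its RPKM was 3.30, 2.76 and 3.28 in siCtrl and 2.13, 2.49 and 2.34 in siBAP18. The siCtrl libraries spread more than for MUC1, and siCtrl replicate 2 lay nearest to the siBAP18 libraries without reaching them. The level in siBAP18 was 74.0% of that in siCtrl (log2 fold change −0.43, standard error 0.138, Benjamini-Hochberg adjusted p = 0.0109, edgeR quasi-likelihood test). These values rest on 130 to 234 counts per library, and the adjusted p was 0.0556 without siCtrl replicate 1 and 0.0578 without siBAP18 replicate 1. MBL1P, an antisense pseudogene that shares 78 exon bases with SFTPD, had 48 to 65 counts a library and was at −0.25 on the log2 scale (adjusted p = 0.39).

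ABCA3, the transporter that moves phospholipid into lamellar bodies, was the member that rose. It lies at chr16:2275881-2340746 on the - strand. RPKM values were 6.08, 6.12 and 6.04 in siCtrl and 7.21, 7.03 and 7.84 in siBAP18, so every siBAP18 library was above every siCtrl library. The level in siBAP18 was 121% of that in siCtrl (log2 fold change 0.27, standard error 0.0724, Benjamini-Hochberg adjusted p = 0.00282, edgeR quasi-likelihood test). The rise passed the adjusted p under all 15 alternatives, with log2 fold changes from 0.20 to 0.33. RP11-715J22.1 and ABCA17P overlap its span but share 0 exon bases with it.

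**Figure D4:**
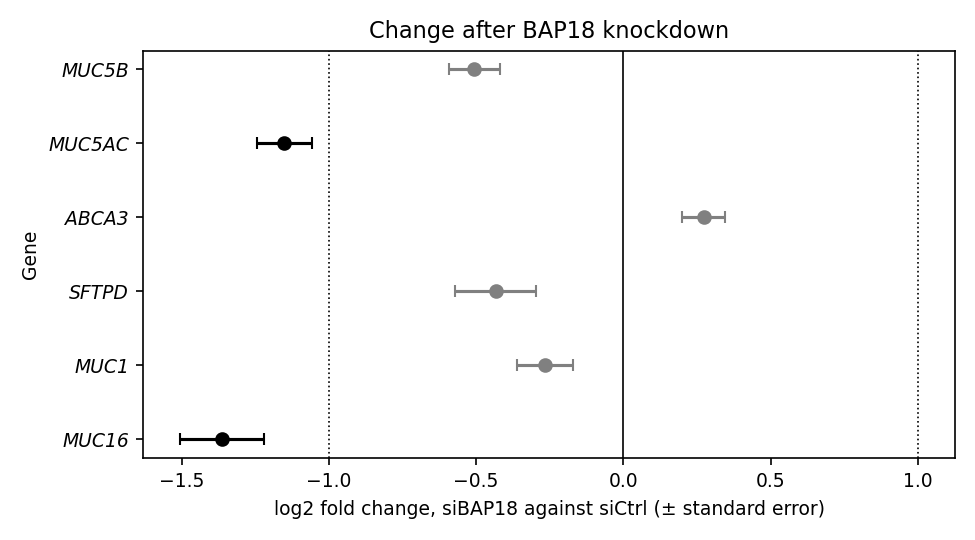
The log2 fold change of siBAP18 against siCtrl (± standard error) for the 6 tested members, with the highest siCtrl RPKM at the top. Black points (MUC5AC at −1.15 and MUC16 at −1.36) passed an adjusted p under 0.05 and lie beyond the dotted line at −1; gray points passed the adjusted p alone, and ABCA3 at 0.27 is the point to the right of 0.

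Of 18 further mucin genes, 14 were listed and 9 tested, and 2 of the 9 were lower at an adjusted p under 0.05 and 0 higher, with a median log2 fold change of −0.215. The share lower, 22.2%, is near the 25.1% of all tested genes. The genes were MUC13, a membrane-bound mucin of gut and airway epithelium (15.6 ± 0.533 RPKM in siCtrl and 11.6 ± 0.450 in siBAP18, SD, n = 3, log2 fold change −0.42, Benjamini-Hochberg adjusted p = 9.98e-06, edgeR quasi-likelihood test), and the sialomucin CD164 (−0.21, adjusted p = 0.0206), both named after their values had been seen. The number lower was 1 without siCtrl replicate 3 and with each limma fit on RPKM values. It was 4 without siBAP18 replicate 2 and without the filter on low counts. None of the 9 was called with the fold change threshold, against 3.74% of all tested genes called lower and 4.72% called higher. MUC15 did not pass the filter on low counts, at 12, 4 and 4 counts in siCtrl and 0 in each siBAP18 library, and was named for that pattern. Without the filter its log2 fold change was −5.77 (Benjamini-Hochberg adjusted p = 0.00362, edgeR quasi-likelihood test), which rests on these few counts.

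Of 27 genes for enzymes that build O-linked sugars on mucins, 24 were tested. At an adjusted p under 0.05, 16 of the 24 were lower and 0 higher, beside 25.1% and 24.5% of all tested genes, with 8 that did not pass and a median log2 fold change of −0.458. The number higher was 1 without siBAP18 replicate 1. The polypeptide GalNAc transferases, which attach the first sugar to serine or threonine, made up 13 of the tested genes, of which 10 were lower, 0 higher and 3 did not pass. With the fold change threshold 3 of the 24 were called lower, all of this family, and 0 higher, against 3.74% and 4.72% of all tested genes. GALNT16 fell from 0.154 ± 0.0316 RPKM in siCtrl to 0.0596 ± 0.00407 in siBAP18 (SD, n = 3, log2 fold change −1.37, standard error 0.241, Benjamini-Hochberg adjusted p = 3.74e-05, edgeR quasi-likelihood test). GALNT4 fell from 11.9 ± 0.811 to 5.45 ± 0.572 RPKM (−1.13, standard error 0.0741, adjusted p = 4.2e-12), but 93.2% of its exon bases are also counted in the read-through gene POC1B-GALNT4, so how much of this is GALNT4 itself is uncertain. GALNT3 had 48, 14 and 28 counts in siCtrl and 18, 8 and 14 in siBAP18, which overlap (−1.19, standard error 0.426, adjusted p = 0.0225), and its adjusted p was 0.224 without siCtrl replicate 1 and 0.116 without siBAP18 replicate 2. GALNT2, the most abundant of the family at 26.9 RPKM in siCtrl, did not pass the test (0.10, adjusted p = 0.216).

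**Figure D5:**
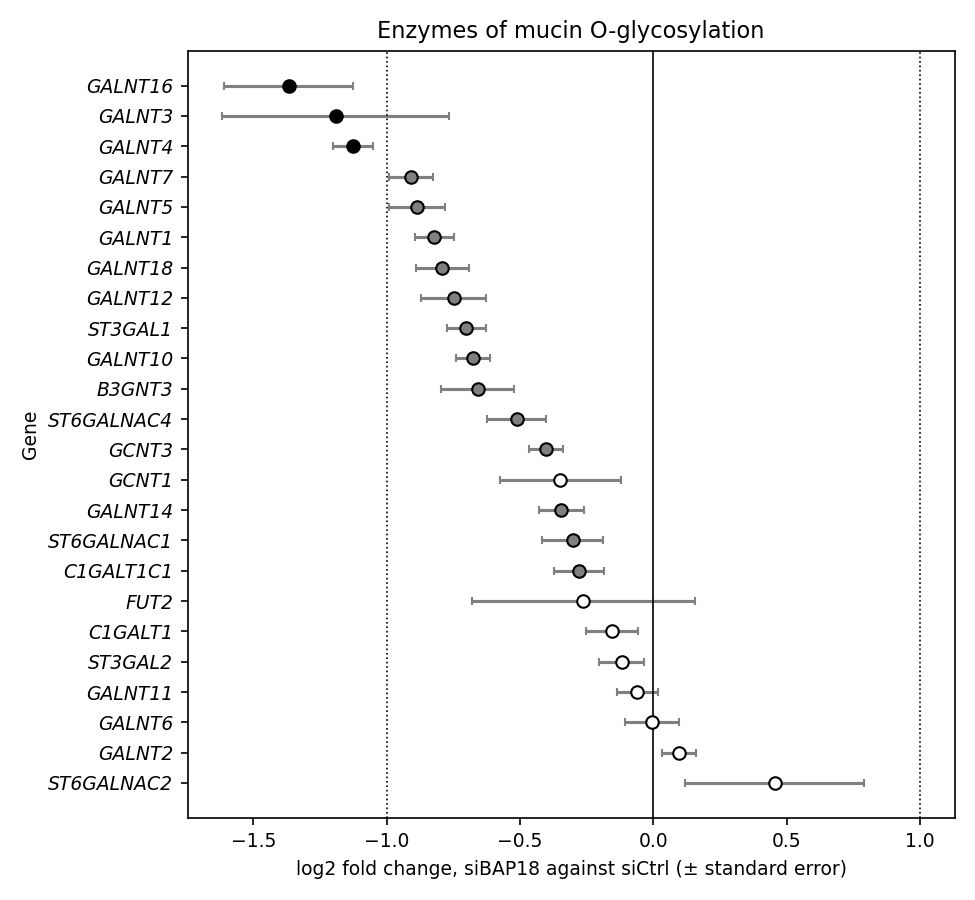
The log2 fold change of siBAP18 against siCtrl (± standard error) for 24 tested enzymes of mucin O-glycosylation. Black points are the 3 genes called with the fold change threshold, gray points passed the adjusted p alone, and open points did not pass; every filled point lies left of 0.

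In the list of mucus secretion and goblet cell genes, 18 of 30 were tested, and 10 were lower at an adjusted p under 0.05 and 1 higher, with a median log2 fold change of −0.397. These are 55.6% lower and 5.56% higher, beside 25.1% and 24.5% of all tested genes. With the fold change threshold 2 were called lower and 0 higher, against 3.74% and 4.72% of all tested genes. The called genes were SCNN1A, a subunit of the epithelial sodium channel that sets airway surface hydration (7.17 ± 0.271 RPKM in siCtrl and 3.18 ± 0.650 in siBAP18, SD, n = 3, log2 fold change −1.18, Benjamini-Hochberg adjusted p = 7.31e-10, edgeR quasi-likelihood test), and BPIFB1, a secreted defence protein of airway glands (0.744 ± 0.0730 and 0.317 ± 0.0992 RPKM, −1.23, adjusted p = 3.71e-05). SPDEF, the transcription factor of goblet cell differentiation, fell from 10.6 ± 0.772 to 6.11 ± 0.918 RPKM (−0.80, standard error 0.101, adjusted p = 3.39e-07). AGR2, a disulfide isomerase of the endoplasmic reticulum needed for mucin folding, fell from 95.1 ± 6.72 to 63.6 ± 7.30 RPKM (−0.59, standard error 0.0725, adjusted p = 2.23e-07). STXBP2, which serves mucin granule release, was the gene that rose (0.25, adjusted p = 0.0129), and it no longer passed without siCtrl replicate 1, siCtrl replicate 2 or siBAP18 replicate 1. Of the secretoglobins and trefoil factors of this list, TFF1 alone passed the filter on low counts (−0.41, adjusted p = 0.279), while SCGB1A1, TFF2 and TFF3 did not.

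In the surfactant lipid and lamellar body list, 25 of 33 genes were tested, and 6 were lower at an adjusted p under 0.05 and 8 higher, with a median log2 fold change of 0.036. Both shares are near those of all tested genes, 25.1% lower and 24.5% higher. With the fold change threshold 1 was called lower and 0 higher, against 3.74% and 4.72% of all tested genes. ATP11A, a lipid flippase, was the called gene and fell from 2.40 ± 0.202 to 1.06 ± 0.133 RPKM (SD, n = 3, −1.18, standard error 0.0827, Benjamini-Hochberg adjusted p = 1.34e-11, edgeR quasi-likelihood test). LPCAT1, the enzyme that remodels phosphatidylcholine for surfactant, rose from 6.03 ± 0.217 to 8.83 ± 0.0942 RPKM (0.55, adjusted p = 2.81e-07), and the desaturase SCD fell from 193.6 ± 6.24 to 109.4 ± 7.82 RPKM (−0.83, adjusted p = 1.28e-10), both named after their values had been seen. Of the type 2 cell markers in the list, LAMP3 (log2 fold change −0.33, adjusted p = 0.655) and NAPSA (0.54, adjusted p = 0.0922) did not pass the test, and LAMP3 changed sign without siCtrl replicate 1 and without siBAP18 replicate 3.

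Of the transcription factors of lung epithelium, 10 of 17 tested genes were lower at an adjusted p under 0.05 and 4 higher, with a median log2 fold change of −0.314. The share lower was 58.8%, beside 25.1% of all tested genes, and the share higher, 23.5%, is near their 24.5%. With the fold change threshold 2 were called lower and 1 higher, against 3.74% and 4.72% of all tested genes. KLF5 fell from 18.2 ± 0.798 to 8.79 ± 0.551 RPKM (SD, n = 3, −1.05, Benjamini-Hochberg adjusted p = 3.12e-12, edgeR quasi-likelihood test), and ID2, an inhibitor of basic helix-loop-helix factors, fell from 4.36 ± 0.104 to 1.78 ± 0.0928 RPKM (−1.30, adjusted p = 2.7e-10). GATA6, a zinc finger factor of lung endoderm, was the gene called higher, from 0.302 ± 0.0171 to 0.689 ± 0.122 RPKM (1.19, adjusted p = 5.92e-06). The forkhead factor FOXA1 was lower (log2 fold change −0.40, adjusted p = 2e-04), while its relative FOXA2 was at 0.17 (adjusted p = 0.0575) and had an adjusted p under 0.05 in 7 of 15 alternatives. CEBPA stood at −0.31 on this scale (adjusted p = 0.0256), and its adjusted p was 0.0956 without siCtrl replicate 1, 0.0657 without siCtrl replicate 3, 0.143 without siBAP18 replicate 1 and 0.0644 without siBAP18 replicate 2.

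Markers of other cell types were counted in the same libraries. The shares to set beside them are those of all tested genes, 25.1% lower and 24.5% higher by the same rule. In the ciliated list, for example, 25% were lower and 12.5% higher. In the alveolar type 1 list 2 of 5 tested genes passed the adjusted p as lower and 2 as higher, and the summed level of the list was 18.1 to 19.6 RPKM in siCtrl and 18.0 to 21.2 in siBAP18. The ciliated list had 2 of 8 lower and 1 higher (118 to 125 and 114 to 129 RPKM). Most of that sum was the tubulin gene TUBB4B, with a mean of 111.3 RPKM in siCtrl and 110.9 in siBAP18. FOXJ1 had only 4 to 16 counts a library. The basal list had 2 of 3 lower and 1 higher (7.77 to 7.97 and 5.73 to 6.35 RPKM), with KRT5 and KRT14 under the filter. The basal gene that rose was NGFR, with 2 to 16 counts in siCtrl and 86 to 140 in siBAP18 (log2 fold change 3.72, Benjamini-Hochberg adjusted p = 1.78e-09, edgeR quasi-likelihood test). In the fibroblast and endothelial list 2 of 4 were lower and 1 higher (1.40 to 1.55 and 1.07 to 1.31 RPKM). The immune list summed to 29.6 to 31.7 RPKM in siCtrl and 54.7 to 70.5 in siBAP18, nearly all of it CD68, a lysosomal protein, while PTPRC and CD3E were not listed. Of the CD68 exon bases, 81.7% are shared with RP11-186B7.4 on the same strand, so how much of this level is CD68 itself is uncertain. The part of these markers in the results on mucins was not tested.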

How the data were processed

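Poly(A) RNA sequencing of 3 siCtrl and 3 siBAP18 A549 cultures was analysed. The authors deposited raw whole-number counts for each gene and RPKM values, which equal the count per kilobase of listed exon length scaled to the library's total. Aligner, counter and use of strand are not given in the sources used here. The labels name the builds hg38 and GRCm38, and the spans of 8 of 9 member rows equal those of GENCODE 29 on GRCh38. Members and gene lists were chosen with earlier results of these data known, and no independent support is drawn from them.

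Counts were compared in R 4.3.3 with edgeR 4.0.16: filterByExpr, TMM scaling and its quasi-likelihood test, two-sided, with Benjamini-Hochberg adjustment over 20776 genes. Standard errors are the log2 fold change over the square root of F. Calls needed an adjusted p under 0.05 together with a log2 fold change above 1 or below −1. Replicates are separate samples by their labels, and p-values measure the spread between these 3 and 3. The alternatives used DESeq2 1.42.0 and limma 3.58.1 on RPKM values. The named genes are the members, C17orf49, genes overlapping a member, the chromosome 11 cluster, in each of the 5 lists of mucin, surfactant and transcription factor genes up to 4 called genes with the smallest adjusted p and the first called the other way, and FOXA1, FOXA2, NKX2-1, GATA6, CEBPA, SPDEF, AGR2, LAMP3, NAPSA and SLC34A2. All others (MUC13, MUC15, CD164, GALNT2, STXBP2, SCGB1A1, TFF1, TFF2, TFF3, LPCAT1, SCD, CD68, TUBB4B, FOXJ1 and NGFR) were named after their values had been seen, as were KRT5, KRT14, PTPRC and CD3E, which define their cell types. Replicates of a group differed beyond counting noise (chi-square over its degrees of freedom 4.17 to 25.8). Tested on simulated counts of this comparison over 20776 genes, the fit called 199 of 200 changed genes and 1 other gene. These numbers hold for the simulated counts only. The planted changes were all larger than the change of any member, and none was given to a gene with low counts. The spread between simulated replicates was set alike for every gene. How often the fit misses or wrongly calls a gene in the real counts was not tested. Sequence steps used Python 3.11.15, numpy 2.4.6, pandas 2.3.3 and the longest coding transcript of each gene, and plots used matplotlib 3.10.9. Of the 10 members, 7 have an entry in the promoter table, and promoters were not used here.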

Additional observations from a re-analysis of the deposited data

How the results depend on the processing

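Of the members, 2 were called under the main settings, under DESeq2's size factors, scaling to totals, the DESeq2 Wald test, no filter, a minimum of 10 counts in each library and with any library left out, and 1 (MUC5AC) was called with limma on log2(RPKM + 1), filtered or not, or filtered log2(RPKM + 0.1). The filter, a minimum mean RPKM of 0.5, removed MUC16. Without the fold change threshold the number was 6. The count of members lower at an adjusted p under 0.05 was 5, and leaving out 1 library gave from 3 to 5, with 3 without siCtrl replicate 1 and 3 without siBAP18 replicate 1, where MUC1 and SFTPD no longer passed. The count of members higher stayed at 1 under every alternative run. Called genes of the 5 companion lists, with 9, 24, 18, 25 and 17 tested genes, numbered 9. Among all tested genes 3.74% were called lower and 4.72% higher. The number called was from 8 to 12 with 1 library left out, and 0 with limma on log2(RPKM + 1) with the filter or without it. That scale compresses the change of low genes. KLF5, GALNT4 and SCNN1A, at higher levels, lie close to the threshold, and their weakest log2 fold changes over the alternatives were −0.971, −0.998 and −0.979. The C17orf49 log2 fold change ranged from −2.72 to −1.81. LAMP3 ranged from −0.723 to 0.553 with 1 library left out, reversing to 0.553 without siCtrl replicate 1 and 0.04 without siBAP18 replicate 3, and the cause was not tested. Over the single genes and the counts of each companion list under each of these settings, 429 values kept their direction and side of the threshold, 16 lost the threshold, 7 gained it, 2 reversed and 12 counts moved by over 1.5 times. This tally leaves out the counts of members, the number of called companion genes and C17orf49, whose values are given above. The other scalings left the median log2 fold change of all genes at 0.007 to 0.009. The ratio of MUC5AC to MUC5B counts, added after seeing the data, gave −0.65 on the log2 scale.

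The same replicate numbers stand in both groups. The residuals of same-numbered libraries correlated at Pearson's r of 0.0773, 0.239 and 0.116 across 14222 genes (genes are not independent replicates), not all over 0.1, so the numbers were not taken as pairing. Every library correlated best with its own number, a hint from the data and not from the design. A replicate block left 2 members called, 5 lower and 1 higher, 9 companion genes called and a C17orf49 log2 fold change of −2.65. Depth limits SFTPA2, SFTPB and SFTPC, which have at most 7 counts in any library, and MUC16 and SFTPD, with at most 353 counts a library.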
